A study of Mus musculus with 4 samples.

Results

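The genes described here encode 9 enzymes of the tricarboxylic acid (TCA) cycle and their cytosolic counterparts, namely Cs, Idh1, Idh2, Idh3a, Ogdh, Sucla2, Fh1, Mdh1 and Mdh2. They were chosen by name, as the genes whose symbol in the array files is one of these, a rule that uses no measured value. They are 9 of 27597 genes on the arrays and carry 15 of the 41174 probes. All 9 were well above background on all 4 arrays on their brightest probe, the probe that stands for the gene below. Total RNA was measured on 4 one-colour (Cy3) Agilent microarrays, from cultured connective tissue cells of mouse embryos. On 2 of the arrays the cells (mouse embryonic fibroblasts, MEF) had received Oct3/4, Sox2, Klf4 and c-Myc, the transcription factors used to reprogramme cells towards pluripotency, and were grown for 72 hours (labelled day 4) at 21% or 5% O2. They are named four-factor MEF here. The other 2 arrays measured untransduced MEF after 10 days of culture, also at 21% or 5% O2. The sources used here do not give the strain, the vectors, the number of embryos or the share of cells that took up all factors. Each condition had 1 array, so a difference between 2 arrays has no replicate check. Each culture's pair of arrays shared 1 slide, so transduction, time in culture and slide cannot be told apart, while each oxygen difference was measured within a slide.

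The TCA cycle runs in the mitochondrial matrix. It joins acetyl-CoA to oxaloacetate, releases carbon dioxide in 2 steps, and passes electrons through NADH and succinate to the respiratory chain. It also supplies citrate for lipid synthesis and 2-oxoglutarate, the substrate that prolyl hydroxylases and demethylases of histones and DNA need together with oxygen. At low oxygen, the hypoxia-inducible factors are known to raise pyruvate dehydrogenase kinases, which hold pyruvate back from the cycle, and MYC is known to raise genes of mitochondrial metabolism and growth.

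The cultures differed in more than these genes. All 12 fibroblast markers were above background on every array. Their summed signal (in multiples of the array's 75th percentile) was 906 and 780 in four-factor MEF at 21% and 5% O2 and 1370 and 1320 in untransduced MEF. Marker by marker, the median log2 difference, four-factor minus untransduced, was -1.45 at 21% and -1.68 at 5% O2. At each level 10 of the 12 were lower. The 2 that were higher, Vim and S100a4, compare with 49.0% and 49.3% of all genes. Lum differed most (0.57 and 0.49 against 6.16 and 6.80). Of 14 macrophage markers, 7 were above background on each four-factor array and all 14 on each untransduced array, with sums of 1.07 and 0.908 against 17.1 and 37.7. Not well above background on the four-factor arrays were Adgre1, Mrc1, C1qa, C1qc, Aif1, Fcgr1 and Tyrobp, while Csf1r, Cd68, C1qb, Cd14, Lyz2, Laptm5 and Mpeg1 were. Laptm5 was higher in four-factor MEF (log2 levels -2.52 and -2.57 against -4.26 and -2.90). Cd68 was higher there at 21% O2 (-1.67 against -2.52) and lower at 5% O2 (-2.40 against -1.36). The 19 cell cycle genes summed to 274 and 371 in four-factor MEF and to 107 and 89.4 in untransduced MEF. Pou5f1, the gene of Oct3/4, was above background on the four-factor arrays (-0.59 and -0.20, log2 relative to the 75th percentile) and on neither untransduced array. Klf4 was lower on the four-factor arrays (4.1 and 3.64 against 5.24 and 5.34). Sox2 was lower there too (-7.0, not well above background, and -5.67 against -4.49 and -2.85). Myc was higher (3.75 and 4.05 against 1.16 and -0.11). Whether the Klf4 and Sox2 probes detect the transduced copies was not determined. In such bulk samples fewer cells of a type and less RNA per cell cannot be told apart.

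Four-factor MEF had more signal than untransduced MEF for 8 of the 9 genes at both oxygen levels. The differences were largest for Idh3a, the catalytic subunit of the NAD-dependent isocitrate dehydrogenase, and for Mdh1, the cytosolic malate dehydrogenase. Ogdh, which encodes the first component of the 2-oxoglutarate dehydrogenase complex, was the exception and was nearly level over the 4 arrays. With oxygen, the same genes differed by less than 1.5-fold in either culture. The values that follow are log2 signal relative to the 75th percentile of each array. They compare 1 gene between arrays and do not rank genes against each other.

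The first steps of the cycle are described first. Cs, citrate synthase, which makes citrate from acetyl-CoA and oxaloacetate, had levels of 6.27 and 6.26 in four-factor MEF at 21% and 5% O2 and of 5.76 and 5.47 in untransduced MEF at 21% and 5% O2. Both four-factor arrays lay above both untransduced arrays, and the 2 four-factor values were closer than the standard deviation of a difference between replicate spots (0.14 log2 units for that pair of arrays, 0.092 for the untransduced pair). The probe covers bases 127765321 to 127765380 of chromosome 10 (probe positions here are in mm8 and come from the array files). A second Cs probe (127764036 to 127764095) showed the same order of cultures with a wider gap, at 4.29 and 4.31 against 3.23 and 2.85. Which exon or untranslated region a probe covers was not determined, since no annotation of mm8 was used here.

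The 3 isocitrate dehydrogenase genes on the list have different partners and places. Idh1, the NADP-dependent enzyme of cytosol and peroxisomes (chromosome 1, 65093737 to 65093796), had levels of 0.46 and 0.64 in four-factor MEF and 0.06 and 0.23 in untransduced MEF at 21% and 5% O2. It was the single member that was higher at 5% O2 in both cultures. Idh2, the NADP-dependent enzyme of mitochondria (chromosome 7, 79971406 to 79971465), stood at 2.0 and 2.18 in four-factor MEF and at 1.46 and 1.41 in untransduced MEF. The cultures did not overlap for either gene. Idh3a (chromosome 9, 54401698 to 54401757) had the widest range of the 9, 1.88 log2 units. Its levels were 3.78 and 4.00 in four-factor MEF and 2.65 and 2.12 in untransduced MEF, so the untransduced culture at 5% O2 was the lowest and the four-factor culture at 5% O2 the highest.

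Ogdh was nearly level instead. Its brightest probe (chromosome 11, 6255299 to 6255358) read -0.37 and -0.40 in four-factor MEF and -0.30 and -0.38 in untransduced MEF, a range of 0.10. The neighbouring probe (6255369 to 6255428) read -0.40, -0.70, -0.31 and -0.34 in the same order, so its one low value came from four-factor MEF at 5% O2. Sucla2, a subunit of the ATP-forming succinyl-CoA synthetase (chromosome 14, 72329659 to 72329718), stood at 4.87 and 4.92 in four-factor MEF and 4.32 and 4.10 in untransduced MEF. Another Sucla2 probe (72330146 to 72330205) had the same order of cultures with a smaller gap, at 2.21 and 2.06 against 1.87 and 1.80. The remaining probe, named for the accession of a cDNA clone, was not well above background on the untransduced arrays and was dim on the others (13.0 and 17.5 intensity units).

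The last steps of the cycle had the same order of cultures. Fh1, fumarase, which hydrates fumarate to malate, stood at 4.19 and 4.32 in four-factor MEF and 3.48 and 3.27 in untransduced MEF. Its probe runs over 2431 bases of chromosome 1 (177438203 to 177440633) although an unsplit probe covers 60, so it is split over genomic segments. Mdh1, which passes reducing equivalents between cytosol and mitochondria in the malate-aspartate shuttle (chromosome 11, 21457280 to 21457339), stood at 4.60 and 5.02 in four-factor MEF and 3.63 and 3.51 in untransduced MEF. A second Mdh1 probe (21459765 to 21459824) gave 4.72 and 4.99 against 3.49 and 3.21, and the remaining one, of a cDNA clone, gave -3.38 and -2.80 against -4.78 and -4.52. All 3 Mdh1 probes thus placed both four-factor arrays above both untransduced arrays. Mdh2, the mitochondrial malate dehydrogenase that closes the cycle (chromosome 5, 136074914 to 136074973), stood at 7.46 and 7.43 against 6.93 and 6.63.

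**Figure D1:**
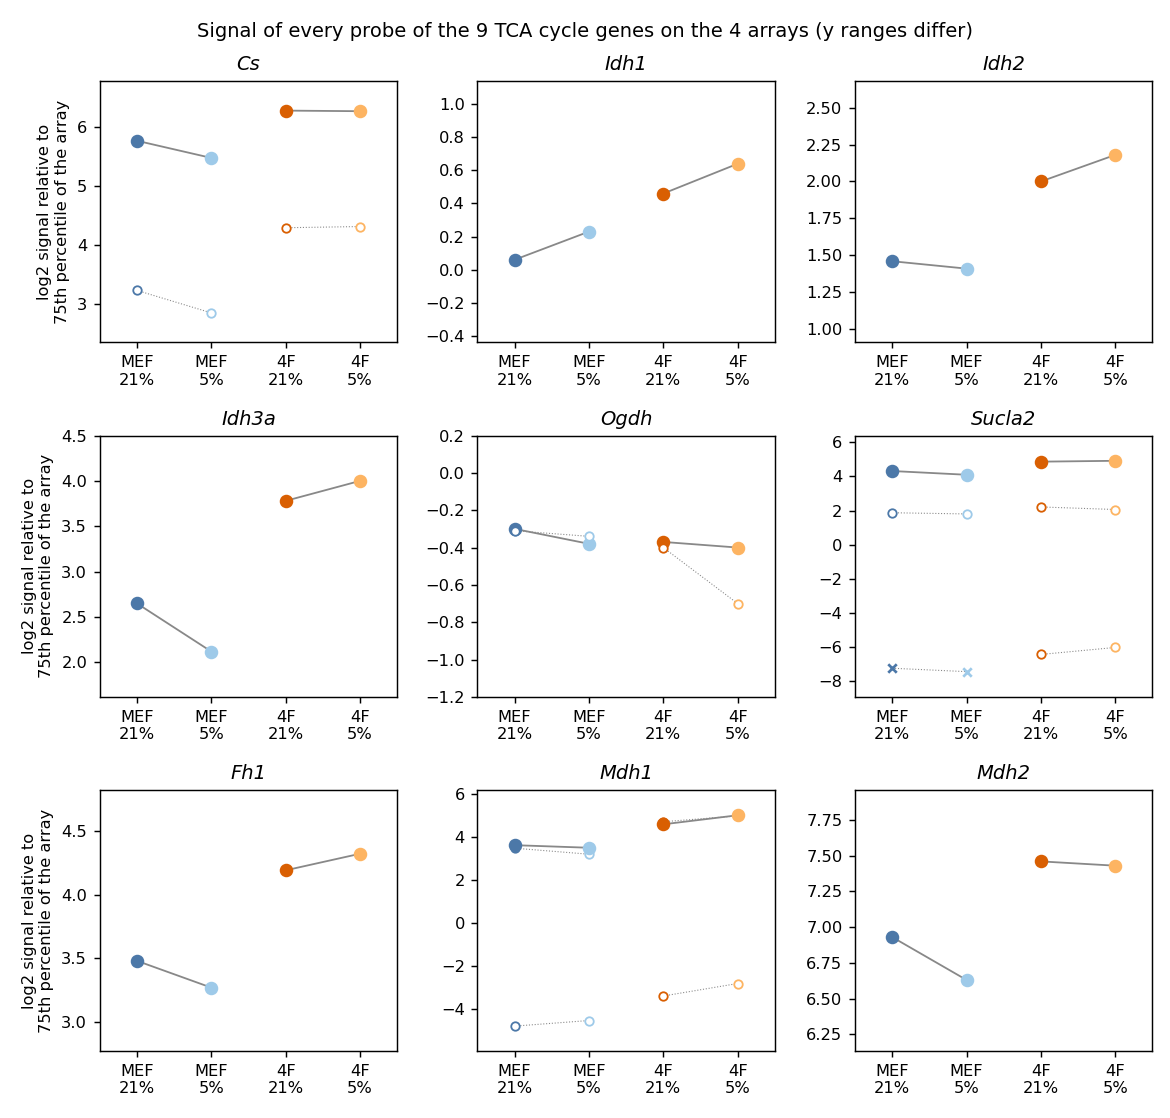
Log2 signal over each array's 75th percentile (y axis, range differing between panels) for every probe of the 9 genes on the 4 arrays (x axis; MEF, untransduced MEF; 4F, four-factor MEF; percent O2). Filled points joined by solid lines are the brightest probe, open points other probes and crosses values not well above background; the four-factor points lie above the untransduced points in each panel except that of Ogdh.

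To show what lies at gene starts, promoters are printed for Cs, Fh1 and Mdh1, which were higher in four-factor MEF, and for Ogdh, which was nearly level. They are from RefSeq (build GRCm38.p6), each from 250 bases before to 50 bases after a gene start and written 5′ to 3′ on the gene's strand. The windows are chr10:128337477-128337776 (Cs, plus strand), chr1:175625586-175625885 (Fh1, minus strand), chr11:21571885-21572184 (Mdh1, minus strand) and chr11:6291920-6292219 (Ogdh, plus strand, 1 of 6 listed starts). Capitals mark ACGTG or GCGTG, the core letters that hypoxia-inducible factors bind, and CACGTG, the E-box letters that MYC binds, on either strand.
Cs: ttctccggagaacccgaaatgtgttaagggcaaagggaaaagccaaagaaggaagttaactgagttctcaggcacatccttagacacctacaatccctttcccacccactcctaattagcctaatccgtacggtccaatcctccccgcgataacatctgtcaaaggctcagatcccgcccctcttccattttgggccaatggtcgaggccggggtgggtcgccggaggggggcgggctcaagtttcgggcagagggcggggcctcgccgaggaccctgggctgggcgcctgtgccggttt
Fh1: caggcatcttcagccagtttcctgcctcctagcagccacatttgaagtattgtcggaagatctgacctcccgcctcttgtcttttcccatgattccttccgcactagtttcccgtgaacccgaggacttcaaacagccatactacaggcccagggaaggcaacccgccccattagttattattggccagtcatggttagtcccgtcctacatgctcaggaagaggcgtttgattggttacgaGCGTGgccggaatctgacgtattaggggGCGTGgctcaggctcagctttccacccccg
Mdh1: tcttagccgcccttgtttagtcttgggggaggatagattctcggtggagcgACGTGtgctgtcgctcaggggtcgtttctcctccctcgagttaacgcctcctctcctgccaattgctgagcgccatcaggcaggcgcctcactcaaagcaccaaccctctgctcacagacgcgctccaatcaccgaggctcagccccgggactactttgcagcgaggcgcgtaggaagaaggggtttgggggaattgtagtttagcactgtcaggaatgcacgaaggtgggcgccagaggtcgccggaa
Ogdh: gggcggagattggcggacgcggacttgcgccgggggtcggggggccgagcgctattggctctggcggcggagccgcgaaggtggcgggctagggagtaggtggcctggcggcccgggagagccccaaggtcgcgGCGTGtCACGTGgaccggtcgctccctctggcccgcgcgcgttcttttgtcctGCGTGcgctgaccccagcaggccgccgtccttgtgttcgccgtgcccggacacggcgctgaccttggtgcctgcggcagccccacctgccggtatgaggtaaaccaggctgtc
CACGTG contains ACGTG on both strands, so an E-box counts for both. The table held 8 of the 9 genes, with 14 starts. It had no entry for Idh3a, the member with the widest range over the arrays. CACGTG was found for 1 of these 8 genes, Ogdh, against 8.09% of all 27025 genes with a promoter in the table. ACGTG was found for 2 (Ogdh and Mdh1) against 21.8%, and GCGTG for 5 (Idh1, Idh2, Ogdh, Fh1 and Mdh2) against 35.2%. The nuclear receptor motif AAGGTCA was found for Ogdh alone, against 5.38% of genes. The palindrome of NRF1, another regulator of mitochondrial genes, was found for none of the 8, against 1.07% of genes. Ogdh alone has 6 of the 14 starts, and so more sequence for a match. Its starts differed: the windows from 6291347, 6291356 and 6291409 held no CACGTG, and only the printed window held AAGGTCA. In the printed windows Cs held none of these motifs, Fh1 held GCGTG and Mdh1 ACGTG. These are matches of letters and not measured binding sites. The printed genes were chosen by how they differed between cultures, and a link between motifs and levels was not tested.

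The comparison of the cultures asked how transduced, reprogramming fibroblasts differ from untransduced ones at the same oxygen level. At 21% O2 the median difference of the 9 genes, four-factor minus untransduced, was 0.53 log2 units against -0.02 for all 15218 genes measured on both arrays. Higher in four-factor MEF were 8 of the 9, against 49.0% of all measured genes. At least 1.5-fold higher were 3 of the 9 (Idh3a, Mdh1 and Fh1), against 23.2% of all genes, and none was 1.5-fold lower, against 26.0%. At least 2-fold higher was Idh3a alone, against 11.8%. Idh3a was higher by 1.13 (2.19-fold), Mdh1 by 0.97 (1.96-fold) and Fh1 by 0.71 (1.64-fold). On their brightest probes Cs (0.51), Idh2 (0.53), Sucla2 (0.55) and Mdh2 (0.53) lay within a narrow band of about 1.4-fold to 1.5-fold. Idh1 was at 0.40, and Ogdh at -0.07. The band and the counts above depend on the probe. Second probes gave 1.05 for Cs, 1.22 for Mdh1, 0.34 for Sucla2 and -0.09 for Ogdh, and the dim Mdh1 probe gave 1.41. Idh3a was above 90.4% of all measured genes and Mdh1 above 87.5%, while the 4 genes in the band were above between 74.1% and 75.4%.

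At 5% O2, where the comparison uses the other 2 arrays, the median difference of the 9 genes was 0.80 against -0.02 for all 15448 genes. Again 8 of the 9 were higher, against 49.3% of all genes. At least 1.5-fold higher were 7 of the 9, against 28.0%, and none was 1.5-fold lower, against 30.2%. At least 2-fold higher were 3 genes, namely Idh3a (1.88, or 3.69-fold), Mdh1 (1.51) and Fh1 (1.05), against 17.1%. Sucla2 (0.82), Mdh2 (0.80), Cs (0.79) and Idh2 (0.77) again lay close together on their brightest probes. Second probes gave 1.46 for Cs, 1.78 for Mdh1, 0.26 for Sucla2 and -0.36 for Ogdh, and the dim Mdh1 probe gave 1.72. Idh1 (0.41) was within 0.01 of its difference at 21% O2, and Ogdh was at -0.03. The difference was wider at 5% than at 21% O2 for the other 7 genes, a contrast that has no test with 1 array per condition.

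**Figure D2:**
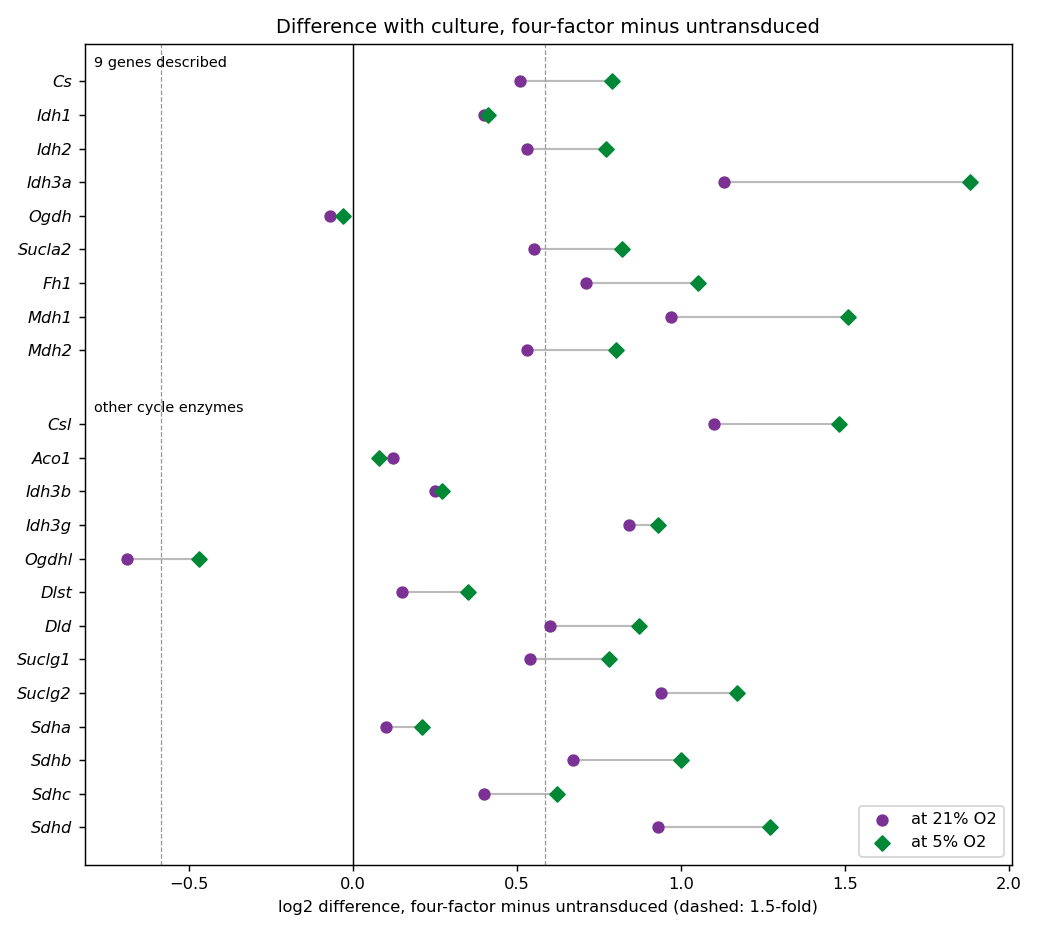
Log2 difference, four-factor minus untransduced (x axis), at 21% O2 (circles) and 5% O2 (diamonds) for the 9 genes and 13 of the 14 other cycle enzymes (y axis), 1 array per condition, dashed lines at 1.5-fold. Idh3a (1.13 and 1.88) and Mdh1 (0.97 and 1.51) lie furthest to the right among the 9, and Ogdh (-0.07 and -0.03) lies at 0.

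A limma model that holds a culture term and an oxygen term combined both oxygen levels, fitted to all 18278 genes above background on at least 2 arrays. Its error is the amount by which the culture difference is unequal at both oxygen levels, with 1 residual degree of freedom moderated over genes. The labels do not say that the arrays came from separate cultures, so its p-values measure the spread between these arrays only. Of the 9 genes 7 rose in four-factor MEF at an adjusted p (Benjamini-Hochberg over all genes) under 0.05 and none fell, against 27.3% of all genes that rose and 22.7% that fell. Idh3a rose by 1.51 (SE 0.25, adjusted p 0.0164, limma) and Mdh1 by 1.24 (SE 0.21, adjusted p 0.0171, limma). Fh1 rose by 0.88 (SE 0.18, adjusted p 0.0255, limma), Sucla2 by 0.68, Mdh2 by 0.67, and Cs and Idh2 by 0.65 each. The last 4 had adjusted p between 0.0411 and 0.0457, each higher on both four-factor arrays. Idh1 (0.40, SE 0.16, adjusted p 0.108) and Ogdh (-0.05, SE 0.16, adjusted p 0.812) did not pass. With quantile normalization, 3 of the 9 passed (Idh3a, Mdh1 and Fh1), against 25.8% of all genes that rose. There Cs, Idh2, Sucla2 and Mdh2 had adjusted p from 0.0567 to 0.11 (limma). With scaling on the spike-in controls 8 passed, Idh1 among them at 0.91, but 48.4% of all genes rose under that scaling.

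The scaling sets the size of these values. Spike-in scaling moved the median of all genes to 0.39 at 21% and 0.58 at 5% O2, and the median of the 9 genes to 0.94 and 1.40. Both scalings subtract a constant from each array, so the 9 necessarily stayed 0.55 and 0.82 higher relative to all genes. Of all genes at least 1.5-fold apart, 47.2% at 21% and 48.1% at 5% O2 were higher in four-factor MEF, but 70.8% and 74.7% with spike-in scaling and 31.0% and 34.1% with no filter on dim probes. The 8 genes that were higher kept that sign under all 8 alternatives at both oxygen levels. Among these, the deposited value table has the same scale and the filter drops none of the 9 genes. Those settings could therefore hardly move the values. Ogdh changed sign, running from -0.08 to 0.34 at 21% and from -0.20 to 0.57 at 5% O2. The cell cycle genes moved with the culture as well, 18 of 19 rising in the same fit (median 1.86). Of the macrophage markers, 7 were tested among genes above background on all 4 arrays, and 5 of them fell, against 29.6% of all genes so chosen. The part of these genes in the differences of the cycle genes was not tested.

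The other 14 genes of the cycle, a list made by name, held genes that passed and genes that did not. In the same limma fit 7 of the 14 rose in four-factor MEF (50%, against 27.3% of all genes) and none fell (against 22.7%), with a median of 0.59 against 0.08 for all genes. In the isocitrate dehydrogenase that holds Idh3a, the regulatory subunit Idh3g rose by 0.88 (adjusted p 0.0199, limma), while Idh3b was at 0.26 (adjusted p 0.245). In the complex that holds Ogdh, the core transferase Dlst was at 0.25 (adjusted p 0.279), and Dld, the dehydrogenase it shares with the pyruvate dehydrogenase complex, rose by 0.74 (adjusted p 0.0346). The related gene Ogdhl was at -0.58 (adjusted p 0.0564).

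Suclg1, the subunit that pairs with Sucla2, rose by 0.66 (adjusted p 0.0424, limma). Suclg2, which takes the place of Sucla2 in the GTP-forming enzyme, rose by 1.05 (adjusted p 0.0155, limma). Succinate dehydrogenase, which is also complex II of the respiratory chain, was uneven. The iron-sulphur subunit Sdhb rose by 0.84 (adjusted p 0.0287, limma) and the membrane anchor Sdhd by 1.1 (adjusted p 0.0164, limma). The anchor Sdhc was at 0.51 (adjusted p 0.0744), and the flavoprotein Sdha, which holds the succinate site, at 0.16 (adjusted p 0.457). Aco1, the cytosolic aconitase, was close to level at 0.10 (adjusted p 0.638). Csl, a near copy of citrate synthase, rose by 1.29 (adjusted p 0.0128, limma), but its probe may share signal with Cs, so this value is uncertain. As reported, isocitrate dehydrogenase, 2-oxoglutarate dehydrogenase and succinate dehydrogenase thus held subunits that passed and subunits that did not, while all 3 genes of succinyl-CoA synthetase passed. Which genes pass depended on the processing. With quantile normalization 5 of the 14 rose, against 25.8% of all genes, and with spike-in scaling 12, against 48.4%. Sucla2 did not pass with quantile normalization (adjusted p 0.0669, limma).

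**Figure D3:**
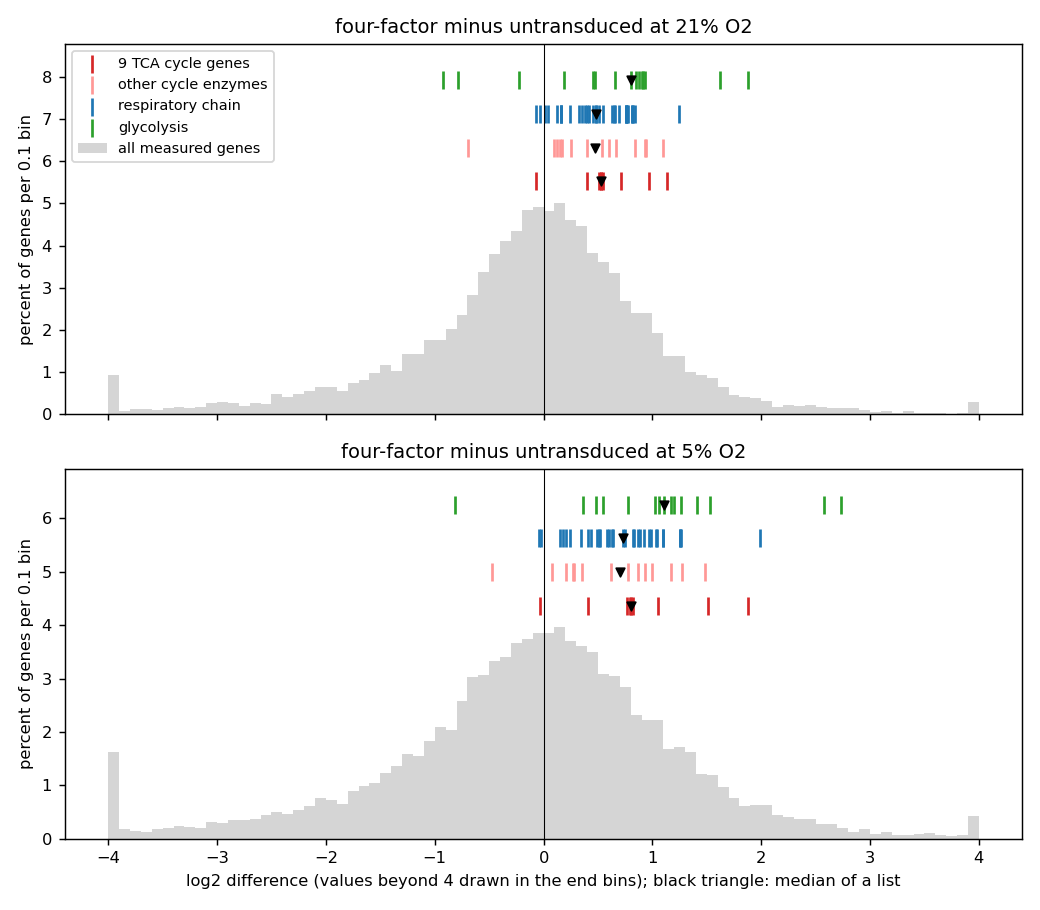
Distribution of the log2 difference, four-factor minus untransduced (x axis), over all measured genes (grey bars, percent of genes per bin of 0.1, y axis) at 21% O2 (top) and 5% O2 (bottom), with each gene of 4 lists as a tick and the list's median as a triangle. The median of the 9 genes was 0.53 at 21% and 0.80 at 5% O2, beside 0.48 and 0.73 for 33 respiratory chain genes and 0.80 and 1.11 for 15 glycolysis genes.

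Neighbouring pathways were set beside these values. The 33 respiratory chain genes had median culture differences of 0.48 at 21% and 0.73 at 5% O2, with 16 rising (48.5%, against 27.3% of all genes) and none falling (against 22.7%) in the limma fit. The 15 glycolysis genes had medians of 0.80 and 1.11, with 9 rising (60%) and 1 falling (6.67%). With quantile normalization 12 of the respiratory chain genes and 8 of the glycolysis genes rose, against 25.8% of all genes. With spike-in scaling 29 and 13 rose, against 48.4%. In the pyruvate entry list 4 of 13 measured genes rose (30.8%) and 3 fell (23.1%), shares near those of all genes. The 4 that rose were parts of the pyruvate dehydrogenase complex, which feeds acetyl-CoA into the cycle: Pdha1 (1.51), Pdhx (0.93), Pdhb (0.83) and Dlat (0.80). The 3 that fell act on that complex, namely the inhibiting kinases Pdk4 (-2.45, adjusted p 0.0041, limma) and Pdk2 (-1.80, adjusted p 0.00936, limma) and the activating phosphatase Pdp1 (-2.04, adjusted p 0.00488, limma). Of 19 genes that fill or drain the cycle or carry its intermediates, 8 rose (42.1%) and 3 fell (15.8%). Among them Slc25a13, an aspartate-glutamate carrier, and the glutaminase Gls2 rose by 2.63 each, and Pck2, the mitochondrial phosphoenolpyruvate carboxykinase, fell by 1.97 (adjusted p 0.00484, 0.00604 and 0.00587, limma).

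The other comparison asked how each culture differs between 5% and 21% O2. In four-factor MEF the 9 genes had a median difference (5% minus 21% O2) of 0.13 against -0.01 for 17929 measured genes. Higher at 5% O2 were 6 of the 9, against 48.1% of all genes. None of the 9 was 1.5-fold higher, against 4.78%, or 1.5-fold lower, against 5.69%. Mdh1 differed most, at 0.43 (1.34-fold), above 90.8% of all genes and 3 times the standard deviation of a difference between spots. Its other probes gave 0.28 and 0.58. Idh3a (0.22), Idh1 (0.19) and Idh2 (0.18) also exceeded that deviation of 0.14. Fh1 (0.13), Sucla2 (0.05), Cs (-0.01), Ogdh (-0.03) and Mdh2 (-0.03) did not. The second Ogdh probe was at -0.30, unlike the first. The second Sucla2 probe was at -0.15, opposite in sign to the first and beyond the spot deviation. Cell cycle genes moved the same way in this culture, with 19 of 19 higher at 5% O2 (median 0.50). The 10 epithelial markers summed to 4.29 at 21% and 9.44 at 5% O2, with Krt8 the brightest (log2 levels 1.43 and 2.80). Of the 7 epithelial markers measured on both arrays 5 were higher and 2 lower at 5% O2, Krt18 among the latter (-0.52 and -0.99). The part of the cell cycle genes and epithelial markers in the differences of the 9 genes was not tested.

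With spike-in scaling all 9 were higher at 5% O2 in four-factor MEF (median 0.26). The median of all genes moved to 0.12 with it, so most genes were higher there too. Of all genes at least 1.5-fold apart in this comparison, 45.6% were higher at 5% O2, and 71.9% with that scaling. Cs, Ogdh and Mdh2, all within 0.03 of 0, were the members whose sign depended on the alternative.

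In untransduced MEF the sign was the opposite for 5 of the 9 (Idh2, Idh3a, Sucla2, Fh1 and Mdh1). Lower at 5% O2 were 8 of the 9, against 55.2% of all 15197 measured genes, and the median was -0.21 against -0.04. None was 1.5-fold lower, against 5.72%, or 1.5-fold higher, against 6.94%. Idh3a differed most, at -0.53 (1.44-fold), with 6.96% of all genes below it. Mdh2 (-0.31), Cs (-0.29), Sucla2 (-0.22), Fh1 (-0.21) and Mdh1 (-0.12) also exceeded the standard deviation of a difference between spots on this slide. The second Cs probe gave -0.38, and the other Mdh1 probes -0.28 and 0.27, the latter from the dim probe. Ogdh (-0.08) and Idh2 (-0.06) lay within that deviation, and Idh1 was higher by 0.17. Each of these signs held under all 8 alternatives. Macrophage markers were higher at 5% O2 in this culture (summed signal 17.1 at 21% and 37.7 at 5% O2). The summed signal of the adipocyte markers was higher too (39.6 and 88.9), but most of it came from Lpl (log2 levels 5.25 and 6.42). Of the 7 adipocyte markers, 3 were above background at 21% and 5 at 5% O2. Of the cell cycle genes 18 of 19 were lower (median -0.32). Their part in these differences was not tested.

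**Figure D4:**
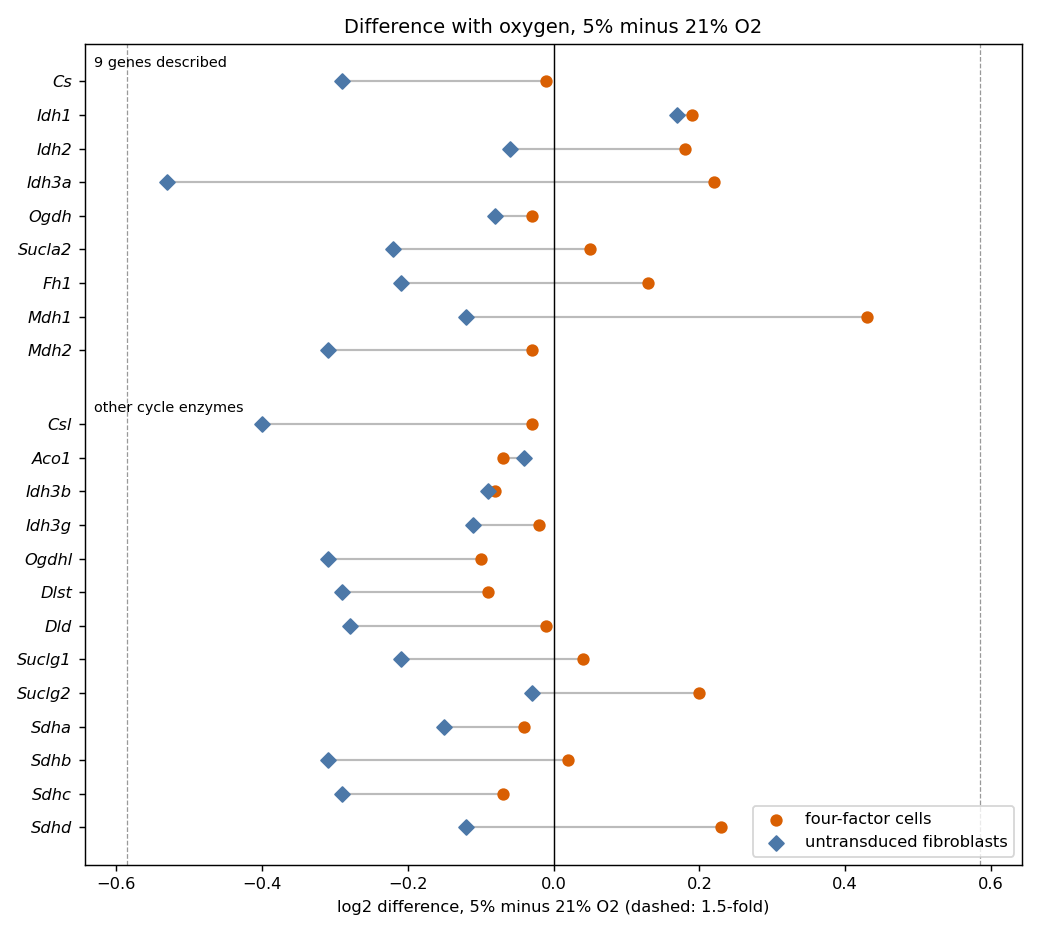
Log2 difference, 5% minus 21% O2 (x axis), in four-factor MEF (circles) and untransduced MEF (diamonds) for the 9 genes and 13 of the 14 other cycle enzymes (y axis), 1 array per condition, dashed lines at 1.5-fold. All points lie within 1.5-fold, and Idh3a (0.22 and -0.53) has the longest line between the cultures.

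The oxygen term of the limma model, which both cultures share, called none of the 9 genes, and no gene of 18278 (0.0% higher and 0.0% lower). At an unadjusted p under 0.05 there were 1400 genes and none of the 9. The estimates of the members ran from -0.17 (Mdh2, SE 0.18) to 0.18 (Idh1, SE 0.16), with adjusted p of at least 0.847. The shared term averages the cultures, so it cannot show the differences of the 5 members that had opposite signs in them. Pdk1, higher at 5% O2 in both cultures, did not pass either (2.01, SE 0.36, adjusted p 0.592, limma). With the normexp background 73 genes rose and 95 fell, and with spike-in scaling 130 and 85, again with none of the 9.

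The other 14 cycle genes were all lower at 5% O2 in untransduced MEF (median -0.19), against 55.2% of all genes. They ran from Csl (-0.40), Sdhb (-0.31) and the dim Ogdhl (-0.31, 34.1 and 29.5 intensity units) to Suclg2 (-0.03). Aco1 (-0.04) and Suclg2 lay within the spot deviation of 0.092. Other probes of Sdha (0.03 and 0.20) and Suclg2 (0.01) had the opposite sign. In four-factor MEF 4 of the 14 were higher, against 48.1% of all genes, with a median of -0.03. Sdhd (0.23) and Suclg2 (0.20, but -0.11 on its other probe) were higher by the most. Respiratory chain genes had medians of 0.03 in four-factor MEF and -0.21 in untransduced MEF, with 32 of 33 lower in the latter (against 55.2%). Of the glycolysis genes, 15 of 15 were higher at 5% O2 in four-factor MEF (median 0.65), against 48.1% of all genes. In untransduced MEF, where 55.2% of all genes were lower, 13 of 15 were higher (median 0.17). Among the regulators of pyruvate entry, Pdk1, the kinase that hypoxia-inducible factors raise, was higher at 5% O2 by 2.64 and 1.38, and Pcx, pyruvate carboxylase, which makes oxaloacetate from pyruvate, was lower by -0.32 and -0.42. Pdk3, another of the kinases, was at 0.31 in four-factor MEF, and Pdhx at -0.34 in untransduced MEF. Of the genes that fill or drain the cycle, Gls2 was higher by 1.2 and 0.50, and Me3, a mitochondrial malic enzyme, was at -0.67 and Me2 at 0.26 in four-factor MEF. Gpt, an alanine aminotransferase, was at 0.72 and D2hgdh, which turns 2-hydroxyglutarate back into 2-oxoglutarate, at 0.67 in untransduced MEF.

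Over the 4 arrays, 5 of the 9 genes (Idh2, Idh3a, Sucla2, Fh1 and Mdh1) had one order, lowest in untransduced MEF at 5% O2, then those at 21%, then four-factor MEF at 21%, and highest in four-factor MEF at 5% O2. This order was found for 17.4% of 14927 genes above background on all arrays, for 4 of the 14 other cycle genes and for 18 of 33 respiratory chain genes. Sucla2 on its second probe and Mdh1 on its dim probe did not have this order. Neighbours in it lay within the spot deviation for Idh2 (untransduced arrays) and for Sucla2 and Fh1 (four-factor arrays). Both four-factor arrays lay above both untransduced arrays for 8 of the 9 genes, 13 of the 14 other cycle genes and 30 of 33 respiratory chain genes, against 40.9% of all genes. Where the cultures do not overlap, the order given above and opposite oxygen differences are the same condition. The same 5 of the 9, on their brightest probes, were thus higher at 5% O2 in the four-factor culture and lower in the untransduced one. Of all genes, 23.9% were. With each gene's brightest probe centred on its mean, Cs and Mdh2 had the closest profiles of any pair of members. They were 0.0217 log2 units apart (Euclidean distance over the 4 arrays), without the second Cs probe and its wider gap. Idh3a and Ogdh were the most distant, 1.6 apart. Of named genes outside the list, Uck2 (0.0537), Plekha7 (0.0578), Scp2d1 (0.0676), H2ac20 (0.0733) and Tbc1d1 (0.0835) had the profiles nearest to that of Idh3a. With 4 arrays this likeness is a description only.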

How the data were processed

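Total RNA from 4 samples was hybridised to 1 array each. Agilent Feature Extraction 9.5.3.1 made the files and gives each spot's processed intensity after background subtraction and spatial detrending, per the file headers. The deposited value table holds log2 values. Set against the scanner values, they matched log2 intensity scaled to the 75th percentile of its array (within 0.001 for at least 99.8% of probes, column medians -3.86, -3.86, -3.70 and -3.69), and they were not centred per probe. The sources used here do not give the software behind that table.

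The same scale was computed here from the scanner intensities, with the percentile taken over probes, outlier spots dropped and replicate spots averaged. The brightest probe stood for a gene. The standard deviation between replicate spots was 0.0646 to 0.108 log2 units per array, a measure of spots that leaves out the spread between cultures. Between 57.1% and 68.4% of the 41174 probes were well above background, and no spot was saturated. A difference was counted where a gene was well above background on both arrays. The limma model (version 3.58.1, lmFit and eBayes, Benjamini-Hochberg adjustment) was tested on simulated data. The alternatives were median, quantile and spike-in scaling, the normexp background (offset 50), no filter on dim probes, outlier spots kept, the mean over a gene's probes, the deposited value table and, for the model, genes above background on all 4 arrays and trend with robust moderation. R was version 4.3.3. Accessions of 24367 probes were matched to gene names of assembly GRCm38.p6, which was used for names and promoters only. Named are the 9 genes, 13 of the 14 other cycle genes (the remaining one is counted but not reported here), and from 2 neighbouring lists the 3 largest differences per comparison; the other parts of the pyruvate dehydrogenase complex were named after their values were seen. The members and lists were chosen with earlier results of these data known.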

Additional observations from a re-analysis of the deposited data

Results flagged for a closer look

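For several genes the difference with oxygen (5% minus 21% O2, log2 units) had opposite signs in the 2 cultures, each larger than the standard deviation of a difference between replicate spots on its slide. With 1 array per condition the difference between the cultures was not tested. Among the 9 genes these were Idh3a, at 0.22 in four-factor MEF and -0.53 in untransduced MEF, and Mdh1, at 0.43 and -0.12. The dim Mdh1 probe was instead higher at 5% O2 in both cultures (0.58 and 0.27). Among the other cycle genes Sdhd was at 0.23 and -0.12. In the pyruvate dehydrogenase complex and its kinases, Pdha1 was at 0.24 and -0.14, Pdk3 at 0.31 and -0.17, and Pdk2 ran the other way, at -0.29 and 0.29. The malic enzyme Me2 was at 0.26 and -0.12, and the carrier Slc25a13 at 0.18 and -0.32. Across all genes on 4 arrays, 23.9% ran in opposite directions this way (higher in the four-factor culture) at any size, as did 5 of the 9.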

How the results depend on the processing

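No paired analysis was possible because each condition had 1 array and no replicate numbers to block on; the limma model set the cultures against each other within each oxygen level. Among the 9 genes, signs changed for Cs, Ogdh and Mdh2 with oxygen in four-factor MEF and for Ogdh between cultures, all within 0.07 of 0 as reported. No other sign changed under 8 alternatives, although the deposited value table and the setting without a filter could hardly move these genes. The median of the 9 genes in the culture comparison at 21% O2 (0.53) was 0.68 with median scaling, 0.42 with normexp and 0.94 with spike-in scaling. The count of members at least 1.5-fold higher (3, against 23.2% of all genes) was 7 with median scaling and 8 with spike-in scaling. Of all genes, 28.9% and 40.5% were 1.5-fold higher with these scalings. At 5% O2 the median (0.80) was 0.97, 0.67, 0.63 and 1.40 with median scaling, normexp, quantile normalization and spike-in scaling. The culture term called 8850 genes higher and 2668 lower with spike-in scaling, against 4984 and 4158. With quantile normalization it called 3 members higher in place of 7, and 25.8% of all genes in place of 27.3%. The oxygen term called 73 genes higher and 95 lower with normexp and 130 and 85 with spike-in scaling, against 0 and 0. The cause of these moves was not tested. The median oxygen difference of the 9 genes in four-factor MEF (0.13) ran from 0.10 with normexp to 0.26 with spike-in scaling. In untransduced MEF (-0.21) it ran from -0.26 with spike-in scaling to -0.12 with quantile normalization. The spread of such a median was not measured. Precision is limited by the 4 arrays.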
